A study of Mus with 21 samples.

Results

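The 10 genes described here are known markers of the granule cell lineage (*Atoh1*, *Barhl1*, *Neurod1*, *Zic1* and *Zic2*) and of the Purkinje cell lineage (*Ptf1a*, *Lhx1*, *Lhx5*, *Skor2* and *Calb1*) of the cerebellum. They were taken by gene symbol from a table of 55335 genes, in which each of the 10 had 1 row, and all 10 were among the 30552 genes tested. The study asked what losing 1 copy of *Nipbl*, the cohesin loader, or of *Wapl*, the factor that takes cohesin off chromosomes, does to gene expression in the developing brain, and whether the loss of 1 alters the effect of the other. Each library of paired-end reads was made from the poly(A) RNA of 1 female embryo's whole brain at E17.5. The 21 libraries came from 5 WT embryos with both genes intact, 3 *Nipbl*+/- embryos, 7 *Wapl* Δ/+ embryos and 6 embryos heterozygous for both, called double heterozygotes here. The *Nipbl* null allele was formed from a floxed allele by a Cre that is active in the male germ line of the sires (Stra8-icre), so the deletion is carried by every cell of the embryo. The *Wapl* Δ allele lacks the promoter and the first exons, was made with E2a-Cre and was also inherited as a deletion. All mice were backcrossed to C57BL/6J. A further *Nipbl*+/- library, which the authors excluded, was not analysed here.

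Granule cells are the small excitatory neurons of the cerebellum. Their precursors leave the rhombic lip under control of *Atoh1*, gather in the external granule layer late in embryonic life and divide there in response to Sonic hedgehog released by Purkinje cells. Purkinje cells are inhibitory neurons that arise from *Ptf1a*-expressing progenitors of the cerebellar ventricular zone, take on *Lhx1*, *Lhx5* and *Skor2* as they leave the cell cycle, and express the calcium buffer *Calb1* as they mature. The genes are not restricted to the cerebellum. *Zic1* and *Zic2* are known from the dorsal neural tube, the septum and the meninges, *Neurod1* from the cortex and hippocampus, *Lhx1* and *Lhx5* from the diencephalon and from Cajal-Retzius cells, *Barhl1* from the mammillary region, and *Calb1* from many forebrain neurons. In RNA from a whole brain, the cell that each read came from is not known, and fewer cells of a type cannot be told apart from less RNA per cell.

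Total counts per library ran from 25682566 to 35818767 (median 31830396). *Wapl* stood at 46.7% ± 4.51 (SD, n = 7) of the WT level in *Wapl* Δ/+ brains and *Nipbl* at 54.3% ± 4.52 (SD, n = 3) in *Nipbl*+/- brains. In double heterozygotes the levels were 49.3% ± 1.90 for *Wapl* and 54.8% ± 1.79 for *Nipbl* (SD, n = 6). Counts of the mitochondrial gene *mt-Nd3* split the libraries, with 0 to 6 counts in 12 of them and 52 to 106 in the other 9. The low set holds 3 WT, all 3 *Nipbl*+/-, 2 *Wapl* Δ/+ and 4 double-heterozygote libraries. Values within the sets are given for some of the results below, and those of *Nipbl*+/- brains come from the low set alone. Values below are normalized counts, which are counts corrected for library size and composition and can be compared between libraries for 1 gene but not between genes, since the counts were not divided by transcript length. A gene was called when the adjusted *P* value of edgeR's quasi-likelihood test, over all genes tested, fell below 0.10.

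Loss of 1 copy of *Nipbl* went with lower *Calb1* and with higher *Lhx1* and *Lhx5*, and with no called change in any granule lineage gene. In *Nipbl*+/- brains 3 of the 10 genes were called, 2 higher and 1 lower, where 11.2% of all genes tested were called, 4.25% higher and 6.96% lower. For *Wapl* Δ/+ brains edgeR called 0 of the 10, with 5 at an unadjusted *P* under 0.05 and 1 called by DESeq2 (which gave *Atoh1*, *Skor2* and *Ptf1a* no adjusted *P*), against 2.22% of all genes (0.769% higher and 1.45% lower). In double heterozygotes 2 of the 10 were called, *Lhx5* higher and *Calb1* lower, against 3.28% of all genes (0.812% higher and 2.46% lower). These 3 comparisons share the 5 WT libraries. The plot of normalized counts shows each library.

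**Figure D1:**
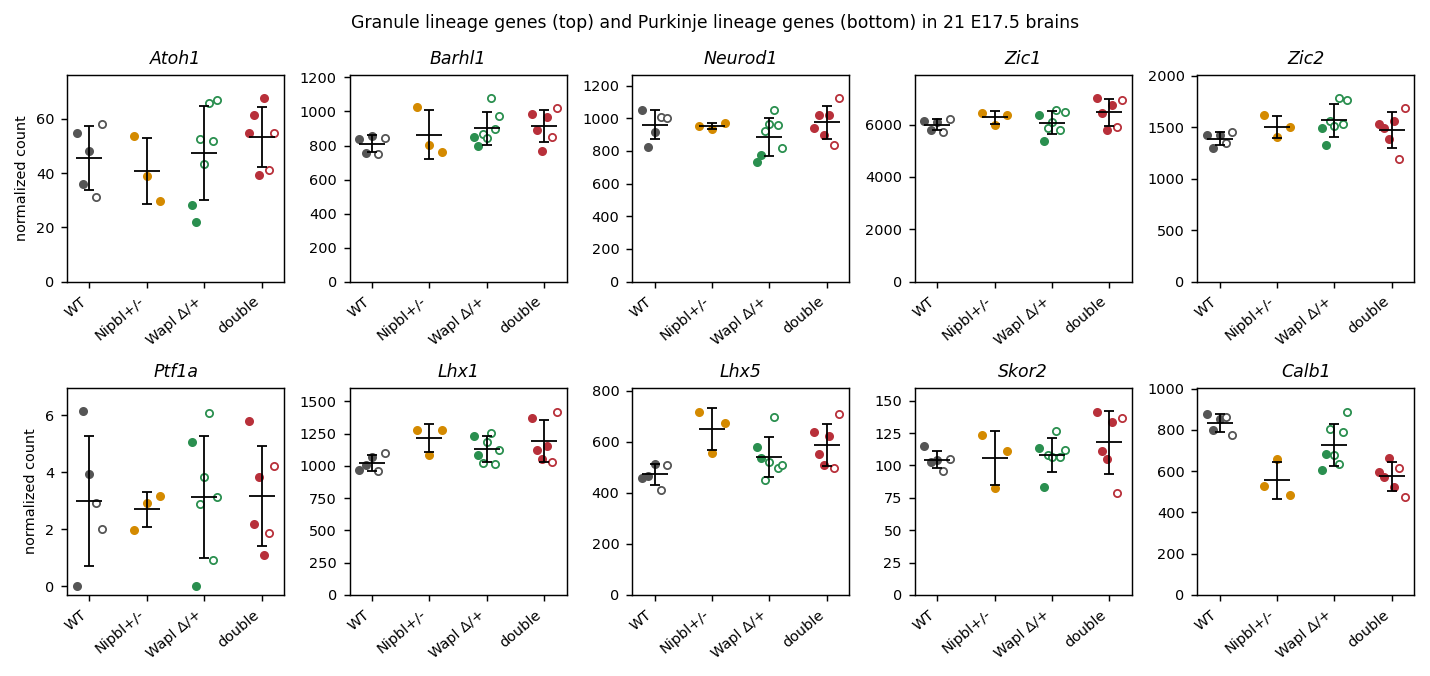
Normalized counts of the 10 genes in the 21 libraries, granule lineage genes in the upper row and Purkinje lineage genes in the lower row, with each point 1 brain and bars giving the group mean ± SD. Filled points are libraries with low *mt-Nd3* and open points libraries with high *mt-Nd3*. For *Calb1* the 3 *Nipbl*+/- and 6 double-heterozygote brains lie below all 5 WT brains, and for *Lhx5* the 3 *Nipbl*+/- brains lie above them, while the groups of the granule lineage genes overlap.

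Of the granule lineage genes, *Atoh1*, the factor that specifies rhombic lip derivatives, is on chromosome 6 from 64729125 to 64731245 (GRCm38). It had few reads, between 22 and 64 per library. Its normalized counts were 54.7, 35.9, 48.1, 31.0 and 58.0 in WT brains and 53.7, 38.9 and 29.7 in *Nipbl*+/- brains. Those of *Wapl* Δ/+ brains ran from 21.9 to 66.8 (median 52.0) and in double heterozygotes from 39.3 to 67.5 (median 54.9). All 3 mutant groups overlapped WT, and the WT brains were themselves widely spread. The log2 fold change against WT was -0.16 in *Nipbl*+/- brains (95% interval -0.63 to 0.30), 0.04 in *Wapl* Δ/+ brains (-0.43 to 0.52) and 0.22 in double heterozygotes (-0.14 to 0.59). In each comparison this interval was the widest among the 9 genes with a fold change. The 2 lowest *Wapl* Δ/+ values belong to the 2 *Wapl* Δ/+ libraries of the low *mt-Nd3* set, and within that set the log2 fold change was -0.88, against 0.33 within the high set.

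*Barhl1*, a homeobox gene that acts downstream of *Atoh1* in migrating granule precursors, is on chromosome 2 from 28907680 to 28917984. Normalized counts of 837, 758, 856, 752 and 843 were found in WT brains and of 1027, 802 and 762 in *Nipbl*+/- brains. They ran from 794 to 1077 (median 869) in *Wapl* Δ/+ brains and from 768 to 1021 (median 931) in double heterozygotes. Only *Nipbl*+/- replicate 1 lay above the WT range among the 3 brains of its group, whereas 4 of 7 *Wapl* Δ/+ and 4 of 6 double-heterozygote brains did. The log2 fold changes were 0.09 (SE 0.0766, edgeR adjusted *P* = 0.598), 0.16 (SE 0.0627, adjusted *P* = 0.230) and 0.18 (SE 0.0631, adjusted *P* = 0.168), and none was called. Within the *mt-Nd3* sets the value in *Wapl* Δ/+ brains was 0.01 in the low and 0.22 in the high set. Leaving out double-heterozygote replicate 3 or 5 brought the edgeR adjusted *P* in double heterozygotes to 0.0290 or 0.0719.

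*Neurod1* drives the differentiation of granule precursors once they stop dividing and is on chromosome 2 from 79452637 to 79456636. Its normalized counts were 1051, 824, 919, 1009 and 1002 in WT brains and 954, 935 and 972 in *Nipbl*+/- brains, so all 3 *Nipbl*+/- brains lay inside the WT range. They ran from 731 to 1052 (median 922) in *Wapl* Δ/+ brains and from 837 to 1122 (median 982) in double heterozygotes. With 3 *Wapl* Δ/+ brains below and 1 above the WT range, the groups overlapped. The log2 fold changes of -0.02, -0.11 and 0.03 had 95% intervals of -0.15 to 0.11, -0.27 to 0.05 and -0.11 to 0.17. In *Wapl* Δ/+ brains the value was -0.30 within the low and -0.094 within the high *mt-Nd3* set.

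*Zic1* and *Zic2* encode zinc finger factors that hold granule precursors in the dividing state. *Zic1* is on chromosome 9 from 91358058 to 91365768, and its normalized counts were 6151, 5794, 6090, 5727 and 6193 in WT brains and 6437, 5998 and 6375 in *Nipbl*+/- brains. They ran from 5354 to 6565 (median 6086) in *Wapl* Δ/+ brains and from 5796 to 7000 (median 6579) in double heterozygotes. Of the 6 double heterozygotes 4 lay above the WT range, as did 2 of 3 *Nipbl*+/- and 3 of 7 *Wapl* Δ/+ brains. *Zic1* overlaps the start of *Zic4*, which begins at 91365631, and since the strand setting is not given, reads from the overlap cannot be assigned with certainty. Its log2 fold changes were 0.06, 0.02 and 0.12, the last with an edgeR adjusted *P* of 0.255, which fell to 0.0931 without double-heterozygote replicate 3 and to 0.0684 without replicate 5.

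*Zic2* lies on chromosome 14 from 122475384 to 122480328, the chromosome that carries *Wapl* from 34672379 to 34747983. Its normalized counts were 1423, 1293, 1426, 1348 and 1452 in WT brains and 1613, 1400 and 1497 in *Nipbl*+/- brains. They ran from 1330 to 1780 (median 1534) in *Wapl* Δ/+ brains and from 1187 to 1690 (median 1511) in double heterozygotes. Among *Wapl* Δ/+ brains 6 of 7 values lay above the highest WT value, yet the difference did not pass the edgeR test (log2 fold change 0.18, SE 0.0581, adjusted *P* = 0.147). It did pass without *Wapl* Δ/+ replicate 2 (0.21, adjusted *P* = 0.0221) and by DESeq2 (adjusted *P* = 0.0821). Within the *mt-Nd3* sets it was 0.03 in the low and 0.22 in the high set. In *Nipbl*+/- brains the log2 fold change was 0.11 (edgeR adjusted *P* = 0.229, and 0.0533 without *Nipbl*+/- replicate 2), and in double heterozygotes 0.09 (adjusted *P* = 0.567, and 0.0794 without double-heterozygote replicate 5). The median log2 fold change of the 5 granule lineage genes was 0.06 in *Nipbl*+/-, 0.04 in *Wapl* Δ/+ and 0.12 in double-heterozygote brains, beside -0.0086, -0.0034 and 0.00070 over all genes tested.

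Of the Purkinje lineage genes, *Ptf1a*, which commits ventricular zone progenitors to an inhibitory fate, is on chromosome 2 from 19445663 to 19447501 and was close to absent. Its raw counts were 0, 6, 4, 3 and 2 in WT brains and 2, 3 and 3 in *Nipbl*+/- brains. They ran from 0 to 5 in *Wapl* Δ/+ brains and from 1 to 6 in double heterozygotes. At this depth no difference was detectable and no fold change is given.

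*Lhx1* and *Lhx5* encode LIM homeodomain factors that newly formed Purkinje cells share. *Lhx1* is on chromosome 11 from 84517975 to 84525534, and its normalized counts were 970, 1009, 1065, 958 and 1099 in WT brains and 1281, 1087 and 1276 in *Nipbl*+/- brains. They ran from 1014 to 1256 (median 1124) in *Wapl* Δ/+ brains and from 1031 to 1420 (median 1139) in double heterozygotes. *Nipbl*+/- replicates 1 and 3 lay well above the WT range and replicate 2 inside it. Relative to WT, *Lhx1* stood at 119% ± 10.9 (SD, n = 3) in *Nipbl*+/- embryos (log2 fold change 0.25, SE 0.0591, edgeR adjusted *P* = 0.0147). This call held in all 8 fits that left out 1 library and was lost when all 4 groups were fitted together (adjusted *P* = 0.108). The log2 fold change of 0.15 in *Wapl* Δ/+ brains (adjusted *P* = 0.197) and that of 0.23 in double heterozygotes (adjusted *P* = 0.119) did not pass the edgeR test. The latter passed without double-heterozygote replicate 3 (adjusted *P* = 0.0566) or 5 (adjusted *P* = 0.0259) and by DESeq2 (adjusted *P* = 0.0626).

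*Lhx5* is on chromosome 5 from 120431886 to 120441457 and showed the largest increase among the 10 genes in *Nipbl*+/- brains. *Lhx5* had normalized counts of 459, 466, 512, 413 and 511 in WT brains and 719, 558 and 674 in *Nipbl*+/- brains, without overlap. They ran from 451 to 696 (median 522) in *Wapl* Δ/+ brains and from 497 to 708 (median 588) in double heterozygotes, where 4 of 7 and 4 of 6 values lay above the highest WT value. Relative to WT, *Lhx5* stood at 138% ± 17.6 (SD, n = 3) in *Nipbl*+/- embryos (log2 fold change 0.45, SE 0.0798, edgeR adjusted *P* = 0.00165). In double heterozygotes it was 124% ± 17.6 (SD, n = 6) of WT (log2 fold change 0.32, SE 0.0818, adjusted *P* = 0.0488), and in *Wapl* Δ/+ brains 115% ± 16.7 (SD, n = 7), a log2 fold change of 0.20 that was not called (adjusted *P* = 0.257). By mean the order was therefore *Nipbl*+/-, double heterozygote, *Wapl* Δ/+ and WT, and neighbours in that order overlapped. The call in *Nipbl*+/- brains held in all 8 fits that left out 1 library, with the log2 fold change between 0.38 and 0.55. The call in double heterozygotes was lost in 6 of 11 such fits, namely without WT replicate 1, 2 or 4 (adjusted *P* = 0.134, 0.118 and 0.160) and without double-heterozygote replicate 1, 4 or 6 (0.117, 0.115 and 0.107). This call was also lost with all 4 groups in 1 fit (edgeR adjusted *P* = 0.11) and with the replicate block (0.132). Within the low *mt-Nd3* set the double-heterozygote log2 fold change was 0.29 (adjusted *P* = 0.0947) and within the high set 0.40 (adjusted *P* = 0.814).

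*Skor2* encodes a corepressor that marks Purkinje cells within the cerebellum and that they need to keep their identity. It is on chromosome 18 from 76846733 to 76901064. *Skor2* had normalized counts of 115, 103, 104, 96.0 and 105 in WT brains and 123, 82.6 and 111 in *Nipbl*+/- brains. They ran from 83.6 to 127 (median 108) in *Wapl* Δ/+ brains and from 78.5 to 142 (median 122) in double heterozygotes. The mutant groups reached both above and below the narrow WT range, and no group stood apart. The log2 fold change was 0.0076 in *Nipbl*+/- brains (95% interval -0.26 to 0.28), 0.05 in *Wapl* Δ/+ brains (-0.15 to 0.25) and 0.18 in double heterozygotes (-0.08 to 0.44). Within the low and the high *mt-Nd3* set the *Wapl* Δ/+ value was -0.12 and 0.15.

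*Calb1*, which encodes the calcium buffer calbindin, is on chromosome 4 from 15881264 to 15906709 and showed the largest change of the 9 genes with a fold change in *Nipbl*+/- brains and in double heterozygotes. *Calb1* had normalized counts of 877, 800, 854, 863 and 774 in WT brains and 526, 657 and 485 in *Nipbl*+/- brains. They ran from 605 to 889 (median 686) in *Wapl* Δ/+ brains and from 475 to 666 (median 583) in double heterozygotes. All 3 *Nipbl*+/- and all 6 double-heterozygote brains lay below the lowest WT brain, and in *Wapl* Δ/+ brains 4 of 7 did while 1 exceeded the highest. Relative to WT, *Calb1* stood at 66.7% ± 10.8 (SD, n = 3) in *Nipbl*+/- embryos (log2 fold change -0.59, SE 0.0771, edgeR adjusted *P* = 0.000182) and 68.9% ± 8.18 (SD, n = 6) in double heterozygotes (-0.53, SE 0.0690, adjusted *P* = 0.000390). The level in *Wapl* Δ/+ brains was 87.1% ± 12.3 (SD, n = 7), a log2 fold change of -0.19 that was not called (SE 0.0739, adjusted *P* = 0.206) but passed without *Wapl* Δ/+ replicate 7 (-0.25, adjusted *P* = 0.0737). The calls in *Nipbl*+/- brains and in double heterozygotes held in all 8 and all 11 fits that left out 1 library. Within the high *mt-Nd3* set, where 2 WT and 2 double-heterozygote libraries remained, the double-heterozygote value was -0.56 with an adjusted *P* of 0.814, and within the low set -0.51 with 0.00131. The *Wapl* Δ/+ value was -0.38 within the low and -0.11 within the high set. The median log2 fold change of the 4 Purkinje lineage genes without *Ptf1a* was 0.13 in *Nipbl*+/- brains, 0.10 in *Wapl* Δ/+ brains and 0.21 in double heterozygotes.

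**Figure D2:**
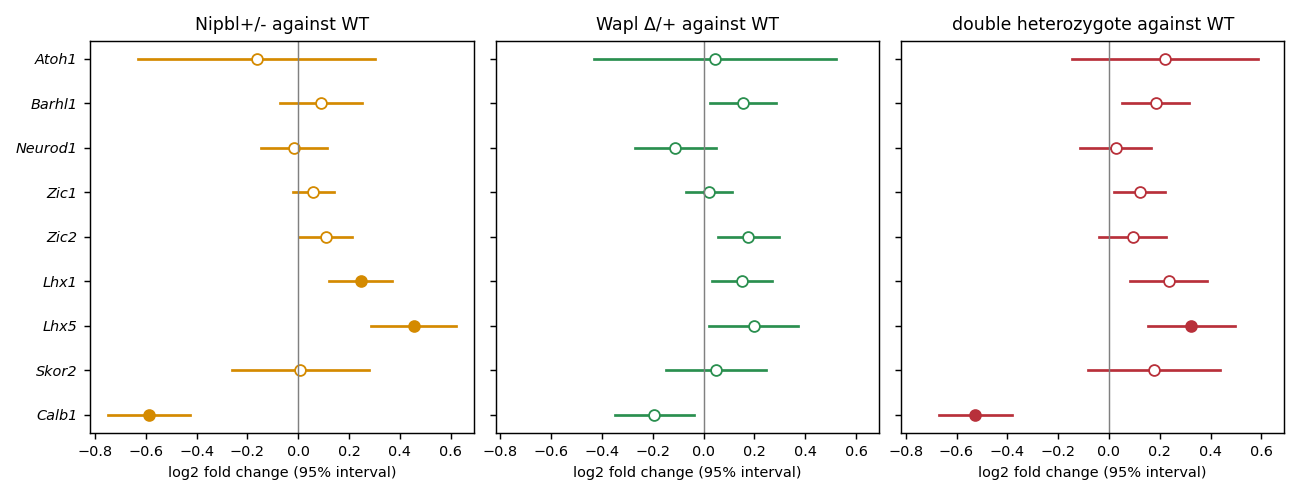
Log2 fold change against WT of 9 of the genes, *Ptf1a* left out for its few reads, in *Nipbl*+/- brains, *Wapl* Δ/+ brains and double heterozygotes. Points are edgeR estimates, bars their 95% intervals, and filled points the called genes. *Calb1* lies at -0.59, -0.19 and -0.53 and *Lhx5* at 0.45, 0.20 and 0.32 in the 3 comparisons, and the intervals of *Atoh1* are the widest.

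The double heterozygotes were also compared directly with each single heterozygote, which asks what losing the second gene adds and uses no WT library. Against *Nipbl*+/- brains, edgeR and DESeq2 both called 0 of the 10 genes, none had an unadjusted *P* under 0.05 in either, and 0.00655% of all genes were called by edgeR. *Calb1* differed by 0.05 on the log2 scale (95% interval -0.18 to 0.28) and *Lhx5* by -0.14 (-0.36 to 0.08). Both intervals include 0, and the upper bound for *Calb1* lies below the 0.59 by which *Calb1* fell in *Nipbl*+/- brains. Against *Wapl* Δ/+ brains, edgeR called 0 of the 10 with 1 at an unadjusted *P* under 0.05, DESeq2 called 1, and 1.02% of all genes were called by edgeR. The gene was *Calb1* in both cases, with a log2 difference of -0.33 (95% interval -0.51 to -0.15, edgeR adjusted *P* = 0.104). It passed the edgeR test without *Wapl* Δ/+ replicate 1, 2 or 5 (adjusted *P* = 0.0464, 0.0918 and 0.0751) or without double-heterozygote replicate 3 or 5 (0.0656 and 0.0915), and was -0.13 within the low and -0.47 within the high *mt-Nd3* set. For *Atoh1*, which was not called in any of these fits, the same difference was 1.14 within the low and -0.22 within the high set. The interaction term, which tests whether the effects of the 2 genotypes add up on the log2 scale, was called by edgeR for 0 of the 10 genes and for 0% of all genes, with 2 of the 10 and 4221 of all genes at an unadjusted *P* under 0.05. DESeq2 called 793 genes and none of the 10, but its filter on mean counts left 3 of the 9 genes with a fold change (*Atoh1*, *Lhx5* and *Skor2*), and *Ptf1a*, without an adjusted *P*, so they could not be called. The 2 genes were *Lhx5*, at -0.37 (95% interval -0.67 to -0.06, edgeR adjusted *P* = 0.263), and *Zic2*, at -0.23 (-0.45 to -0.0058, adjusted *P* = 0.348). For *Calb1* the term was 0.22 (-0.06 to 0.50). Within the low *mt-Nd3* libraries alone the term was -0.38 for *Lhx5*, -0.036 for *Zic2*, 0.47 for *Calb1*, and 1.33 for *Atoh1*, with 2 *Wapl* Δ/+ libraries behind each.

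How the genes varied between brains of 1 genotype was examined for 6 pairs. The pairs rest on known biology but were chosen with earlier results of these data known. The measure was the correlation of deviations from the group means of log2 CPM over all 21 libraries. *P* values are two-sided, from 100000 permutations of libraries within groups, and are adjusted over the 6 pairs, with 0.05 as the threshold on the adjusted value. *Lhx1* and *Lhx5* moved together most closely (Pearson r = 0.88, permutation *P* = 1e-05, the smallest these permutations give, adjusted *P* = 6e-05, Spearman rho = 0.89, permutation *P* = 1e-05). *Zic1* and *Zic2* followed (r = 0.84, permutation *P* = 5e-05, adjusted *P* = 0.00014, rho = 0.80, permutation *P* = 0.00014), and then *Atoh1* and *Barhl1* (r = 0.78, permutation *P* = 7e-05, adjusted *P* = 0.00014, rho = 0.82, permutation *P* = 3e-05). Brains with more *Atoh1* thus had more *Barhl1* at a given genotype. These 3 pairs stayed at r between 0.81 and 0.93 without the 2 libraries farthest from the median of the first gene and within each *mt-Nd3* set.

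The granule gene *Barhl1* and the Purkinje gene *Skor2* also varied together (r = 0.69, permutation *P* = 0.00394, adjusted *P* = 0.00591, rho = 0.78, permutation *P* = 0.00049). Without the 2 farthest libraries r was 0.62 (adjusted permutation *P* = 0.0334), and within the *mt-Nd3* sets it was 0.68 in the low set (adjusted permutation *P* = 0.104) and 0.79 in the high set (adjusted permutation *P* = 0.0191). *Barhl1* and *Neurod1* were less closely tied (r = 0.48, permutation *P* = 0.0280, adjusted *P* = 0.0336, rho = 0.41, permutation *P* = 0.0687, adjusted *P* = 0.0824), and without *Wapl* Δ/+ replicate 5 and *Nipbl*+/- replicate 1 the relation no longer passed (r = 0.43, n = 19, adjusted permutation *P* = 0.126). Within the low and the high *mt-Nd3* sets its r was 0.32 and 0.50, neither past the threshold. *Ptf1a* and *Skor2* showed no detectable relation (r = 0.29, permutation *P* = 0.155, rho = 0.28, permutation *P* = 0.214), with *Ptf1a* at only a few reads.

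**Figure D3:**
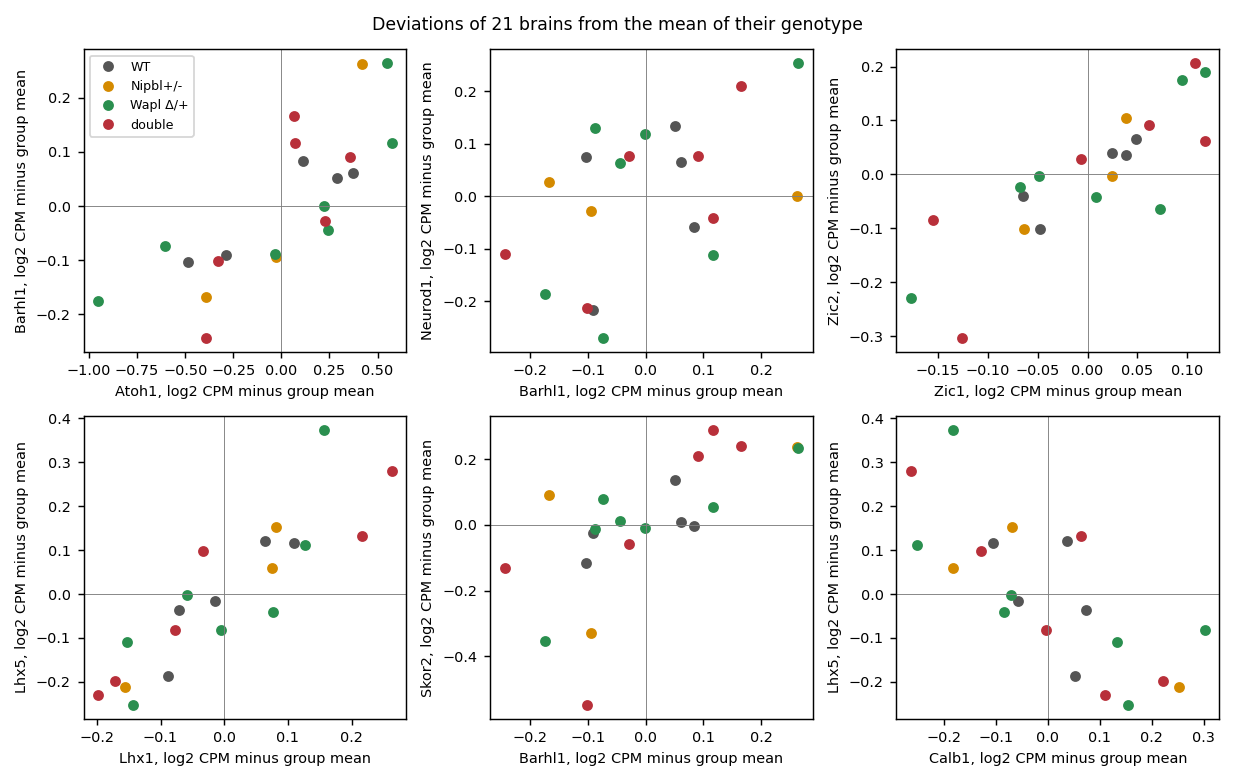
Deviations of log2 CPM from the mean of the genotype in 21 libraries for 6 pairs of genes, each point 1 brain coloured by genotype. *Lhx1* with *Lhx5* (r = 0.88), *Zic1* with *Zic2* (r = 0.84) and *Atoh1* with *Barhl1* (r = 0.78) lie along a rising line, *Barhl1* with *Neurod1* (r = 0.48) is scattered, and *Calb1* with *Lhx5*, a pair added after the levels were seen, falls (r = -0.75).

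Among 17302 genes averaging 1 CPM or more, those whose deviations over the 21 libraries were most like those of *Barhl1* were *En2* (r = 0.85), *Por* (0.83), *En1* (0.83), *Mab21l1* (0.81) and *Trib1* (0.80). *En1* and *En2* encode the engrailed factors that mark the territory from which the cerebellum and the rear of the midbrain form, and *Por* encodes the reductase that feeds electrons to cytochrome P450 enzymes. *Zic2* ranked 7, *Atoh1* 10 and *Zic1* 14 in the same order, *Lhx5* 66, *Skor2* 72 and *Neurod1* 1262 (r = 0.48). The genes most like *Skor2* were *Fgf15* (r = 0.91), *Clcn2* (0.89), *Rtl5* (0.89), *4930516B21Rik* (0.89) and *Yap1* (0.88). *Fgf15* encodes a fibroblast growth factor of neural progenitors and *Yap1* a transcriptional coactivator of the Hippo pathway. In *Skor2*'s order *Zic2* ranked 11 and *Zic1* 28, followed by *Lhx1* at 445, *Lhx5* at 519 and *Barhl1* at 587. All these values come from the same libraries, made with 1 protocol, and are given as a description.

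Other genes of the 2 lineages were read from lists that do not contain the 10. They too were counted in whole-brain RNA, so the region and cell type behind each change are not known. Counts of called genes, here and in the lists below, stand beside the shares called over all genes tested. These shares were 11.2% in *Nipbl*+/- brains (4.25% higher and 6.96% lower), 2.22% in *Wapl* Δ/+ brains and 3.28% in double heterozygotes. Of 23 rhombic lip and granule genes, 7 were called higher and 3 lower in *Nipbl*+/- brains, 0 in *Wapl* Δ/+ brains, and 2 higher and 1 lower in double heterozygotes. In *Nipbl*+/- brains *Nhlh1* (log2 fold change 0.42, SE 0.116) and *Insm1* (0.38, SE 0.0724), both factors of newly formed neurons, rose, while *Etv1* (-0.52, SE 0.0650), a factor of maturing granule cells, and *Unc5c* (-0.36, SE 0.0464), a netrin receptor that guides their migration, fell. The others called higher were *Eomes* (0.33), *Nhlh2* (0.27), *Lmx1a* (0.25), *Lhx9* (0.25) and *Cntn2* (0.13), and the other called lower was *Cbln1* (-0.21). These were named after their values were seen. In double heterozygotes *Insm1* rose by 0.35, *Nhlh2* rose by 0.19 and *Etv1* was at -0.30, also called. *Gabra6*, a marker of mature granule cells, had 0 to 5 counts per library. The median log2 fold change of the other 22 genes was 0.097 in *Nipbl*+/-, 0.028 in *Wapl* Δ/+ and 0.088 in double-heterozygote brains.

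Of 27 Purkinje and other cerebellar GABAergic genes, 9 were called higher and 6 lower in *Nipbl*+/- brains, 1 higher and 1 lower in *Wapl* Δ/+ brains, and 2 higher and 3 lower in double heterozygotes. The genes that rose most were *Neurog1* (log2 fold change 1.23, SE 0.357, at 5 to 28 counts per library) and *Gsx1* (0.53, SE 0.186), both progenitor factors. The genes that fell most were *Itpr1* (-0.61, SE 0.0915), the calcium release channel of the Purkinje endoplasmic reticulum, and *Car8* (-0.48, SE 0.0818), the protein that binds to that channel. *Calb1* fell beside them. The other 4 that fell in *Nipbl*+/- brains were *Ldb2*, *Pcp4*, *Rora* and *Plcb4*, and the other 7 that rose were *Tfap2a*, *Tfap2b*, *Ebf1*, *Ebf2*, *Ebf3*, *Ldb1* and *Foxp4*, named after their values were seen. *Pcp2*, a gene of Purkinje and retinal bipolar cells that was also chosen after its value was seen, was at 0.03 (SE 0.109). Among *Wapl* Δ/+ brains *Itpr1* (-0.31, SE 0.0774) fell and *Lbx1* (0.44, SE 0.124), a factor of hindbrain and spinal interneurons, rose. In double heterozygotes *Ebf1* (0.26, SE 0.0655) and *Ebf2* (0.23, SE 0.0626) rose while *Ldb2* (-0.29, SE 0.0530) and *Pcp4* (-0.28, SE 0.0413) fell, and the fifth called gene was *Olig2*, at -0.22. The list's median was 0.12, -0.02 and 0.06 in the 3 comparisons.

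Of 13 genes of the Sonic hedgehog pathway, through which Purkinje cells drive granule precursor division, 4 were called higher and 2 lower in *Nipbl*+/- brains, 0 in *Wapl* Δ/+ brains, and 0 higher and 2 lower in double heterozygotes. *Hhip*, which encodes a membrane protein that binds and sequesters the ligand, fell in *Nipbl*+/- brains (log2 fold change -0.77, SE 0.122) and in double heterozygotes (-0.54, SE 0.103). *Ccnd1*, a cyclin of dividing precursors, fell in both (-0.21, SE 0.0450, and -0.15, SE 0.0379). *Gli1*, the transcription factor induced by the pathway, rose in *Nipbl*+/- brains (0.26, SE 0.0831), as did the receptor component *Smo* (0.21, SE 0.0522). The ligand gene *Shh* was at 0.16 (SE 0.148) in *Nipbl*+/- brains and was not called. Also not called there were *Ptch1*, at -0.019 (SE 0.0551), and *Mycn*, at -0.0033 (SE 0.0415). *Shh*, *Ptch1* and *Mycn* are named after their values were seen. The list's median was 0.04, 0.07 and 0.06.

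**Figure D4:**
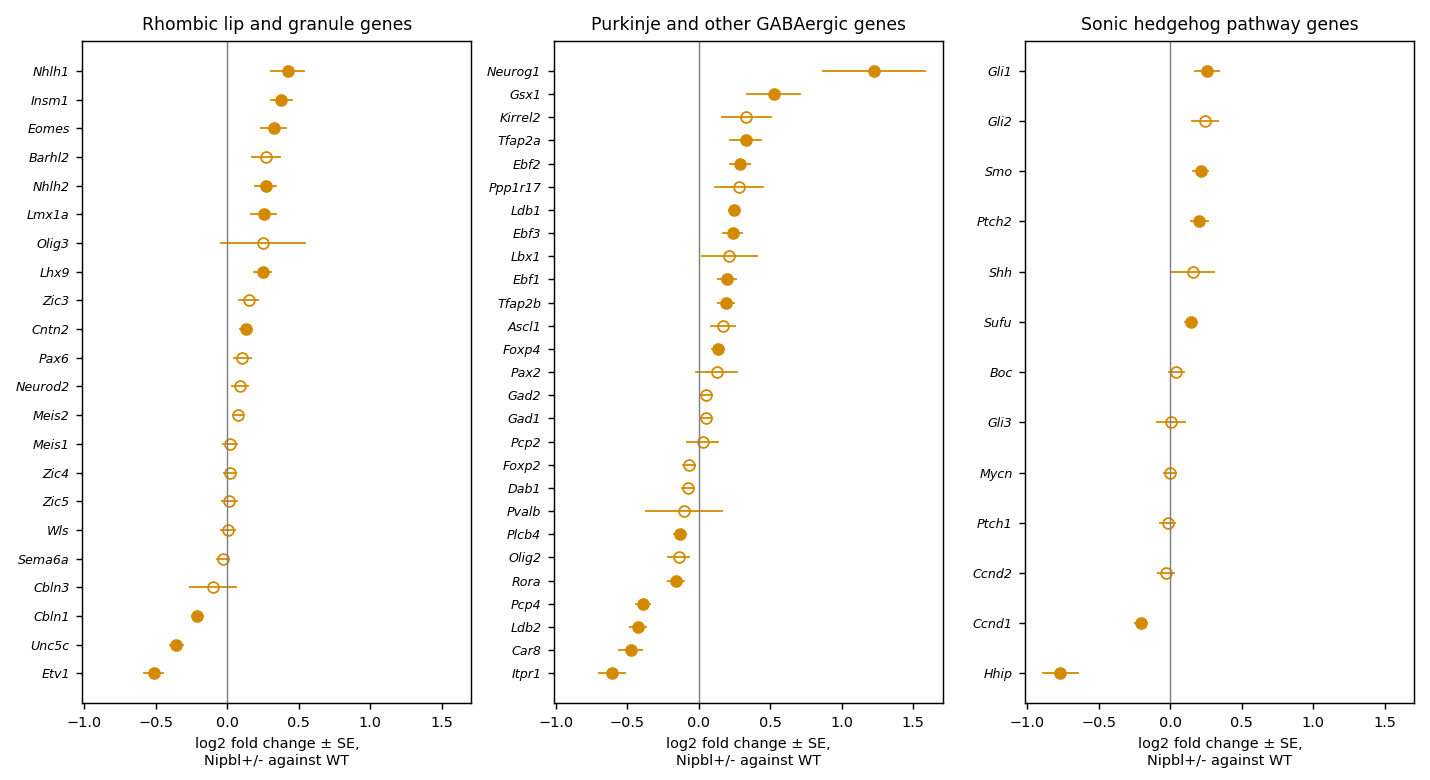
Log2 fold change in *Nipbl*+/- brains against WT of 22 rhombic lip and granule genes, *Gabra6* left out for its few reads, 27 Purkinje and other cerebellar GABAergic genes and 13 Sonic hedgehog pathway genes, each list sorted by value. Points are edgeR estimates, bars ± 1 SE, and filled points called genes. Called genes lie on both sides of 0 in every list, from *Neurog1* at 1.23 to *Hhip* at -0.77.

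Lists for regions and cell types that share the 10 genes were read beside them. Over all genes tested, 4.25% were called higher and 6.96% lower in *Nipbl*+/- brains. In *Wapl* Δ/+ brains 2.22% were called, and in double heterozygotes 3.28%. Of 12 genes of the midbrain and hindbrain territory, 3 were called higher in *Nipbl*+/- brains (*Fgf17* 0.70, *En1* 0.33 and *En2* 0.29), 0 in *Wapl* Δ/+ brains and 3 higher in double heterozygotes (*Hoxb3* 0.39, *En1* 0.31 and *En2* 0.31), with none lower. Their summed level ran from 78.6 to 92.1 CPM in WT, 85.7 to 105 in *Nipbl*+/-, 83.5 to 103 in *Wapl* Δ/+ and 85.5 to 115 in double-heterozygote brains, and none of the 12 was at 0 in any library. Of 11 forebrain genes 9 were called higher and 0 lower in *Nipbl*+/- brains and 0 in *Wapl* Δ/+ brains or double heterozygotes. The largest increases in *Nipbl*+/- brains were those of *Nkx2-1* (0.36), *Emx1* (0.26), *Emx2* (0.25) and *Dlx2* (0.24), factors of the ventral forebrain, the cortex and the ganglionic eminences. Territory genes of both ends of the brain were therefore called higher in *Nipbl*+/- brains. The part of these shifts in the values of *Lhx1*, *Lhx5* and *Barhl1* was not tested.

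Cajal-Retzius cells, early neurons at the cortical surface, express *Lhx1* and *Lhx5*, and the list of 7 genes for them includes both. In *Nipbl*+/- brains 3 of the 7 were called higher (*Lhx5*, *Ebf2* and *Lhx1*) and 3 lower, *Ndnf* at -0.45 (SE 0.0817), *Reln* at -0.42 (SE 0.0691) and *Calb2* at -0.28 (SE 0.0727). *Trp73*, a factor of these cells named after its value was seen, was at 0.10 (SE 0.0677). The summed level of the list was lower in *Nipbl*+/- brains, at 379 to 401 CPM, than in WT brains, at 418 to 505, and *Reln*, with a mean of 252 CPM, makes up most of it. In *Wapl* Δ/+ brains 1 of the 7, *Reln*, was called lower (-0.33), and in double heterozygotes *Lhx5* and *Ebf2* were called higher and *Ndnf* lower (-0.25). Their summed levels were 377 to 451 and 388 to 445 CPM.

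The meninges share *Zic1* and *Zic2* with granule precursors. Of 9 meningeal genes 3 collagens were called higher in *Wapl* Δ/+ brains (*Col1a1* 0.62, *Col1a2* 0.38 and *Col3a1* 0.35) and none lower, and the summed level was 630 to 1082 CPM there against 575 to 739 in WT. In *Nipbl*+/- brains *Col3a1* was called higher (0.20) and *Slc6a13* lower (-0.32), at a summed 578 to 886 CPM, and in double heterozygotes *Crabp2* was called higher (0.27), at 476 to 1031 CPM. None of the 9 was at 0 in any library, and the part of meningeal RNA in the *Zic2* value of *Wapl* Δ/+ brains was not tested. Of 8 choroid plexus genes only *Otx2* was called, higher in *Nipbl*+/- brains (0.23) and double heterozygotes (0.25). Their summed level was 415 to 866 CPM in WT, 554 to 670 in *Nipbl*+/-, 610 to 985 in *Wapl* Δ/+ and 584 to 705 in double-heterozygote brains. Of 7 blood genes only *Hbb-y* was called, higher in *Nipbl*+/- brains (1.43), with summed levels of 421 to 719, 339 to 678, 348 to 811 and 349 to 647 CPM in the 4 groups. Of 6 pituitary genes only *Gh* was called, lower in *Wapl* Δ/+ brains, with 0 counts in 14 of 21 libraries and up to 2056 in 1, and the summed level of the list reached 89.0 CPM in WT and 39.9 in double-heterozygote brains but 2.46 in *Nipbl*+/- and 2.90 in *Wapl* Δ/+ brains.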

How the data were processed

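Poly(A) RNA of 21 whole brains was measured. The authors deposited raw counts per gene, made with featureCounts (Subread 1.6.4) from reads trimmed by cutadapt 2.4 and aligned to GRCm38.p6 (mm10) by STAR 2.5.3a, as their processing notes list. Which annotation and strand setting they used, and how reads that fall on several genes were handled, is not given in the sources used here. Groups and replicate numbers came from the labels, each library being 1 embryo, so *P* values measure the spread between embryos. The labels used here name neither litter nor cross, so spread between litters is not separated from spread between embryos.

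In R 4.3.3, counts were TMM-normalized and tested with edgeR 4.0.16 (limma 3.58.1), keeping genes whose normalized counts over 21 libraries reached 10 in sum. Each pair of groups was fitted alone, the interaction on all 4 groups. DESeq2 1.42.0 served as an alternative. Intervals are 95%. log2 CPM used a prior count of 2. Coordinates matched by symbol to RefSeq's table for GRCm38.p6. The test was checked on simulated counts. The 10 genes, the 12 lists and the pairs were chosen with earlier results of these data known, and 2 genes of the lists are not reported here. All 10 genes are named, with up to 4 called genes of the largest change per other list and comparison and the 5 genes most like *Barhl1* and *Skor2*. Alternatives were DESeq2, its size factors, 2 other filters, a 0.05 threshold, 1 fit of all groups, a replicate block, *mt-Nd3* sets (divided at 20 counts) and leaving out each library.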

Additional observations from a re-analysis of the deposited data

How the results depend on the processing

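Of 1170 recomputed fold changes of single genes, 1079 kept their sign and their side of the threshold (5 of them, by DESeq2, without an adjusted *P*), 11 lost and 26 gained a call, and 54 changed sign. The causes were not tested. Called genes in *Nipbl*+/- brains ranged from 2 to 4. In brains of *Wapl* Δ/+ embryos 1 gene was called by DESeq2, 4 (*Calb1*, *Lhx1*, *Lhx5* and *Zic2*) with the replicate block, and 0 to 1 leaving out 1 library. In double heterozygotes 3 genes (*Calb1*, *Lhx1* and *Lhx5*) were called by DESeq2, and the same 3 without a filter. For this group 1 gene was called with all 4 groups in 1 fit, 1 with the replicate block and 0 within the high *mt-Nd3* libraries. Leaving out 1 library gave 1 to 6 (1 without WT replicate 1, 2 or 4 or double-heterozygote replicate 1, 4 or 6, 5 without replicate 3 and 6 without replicate 5). Between double heterozygotes and *Wapl* Δ/+ brains 1 gene (*Calb1*) was called by DESeq2, 1 with DESeq2 size factors, 1 without a filter, 1 with all 4 groups in 1 fit, and 0 to 1 leaving out 1 library. Over all genes, DESeq2 called 3504 in *Nipbl*+/- brains against 3422 by edgeR, 1446 in *Wapl* Δ/+ brains against 677, and 1480 in double heterozygotes against 1001. It called 626 against 311 between double heterozygotes and *Wapl* Δ/+ brains, 5 against 2 between double heterozygotes and *Nipbl*+/- brains, and 793 against 0 for the interaction.

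Same-numbered libraries of different groups correlated at a mean r of 0.0167 (25 pairs, -0.0695 to 0.121), beside -0.00307 for other-numbered ones (136 pairs, -0.148 to 0.121). Of 21 libraries, 4 correlated best with a library of their own number. The labels do not say what the numbers stand for, and whether they follow litter or order of collection was not tested. The block changed no count other than those above.

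Signs changed only for genes not called in the comparison concerned. Against WT in *Nipbl*+/- brains, *Neurod1* was at 0.012 with all 4 groups in 1 fit, 0.033 with the replicate block, 0.027 with the *mt-Nd3* set as a term and 0.027 within the low set, and *Skor2* at -0.033, -0.029 and -0.028 in the last 3. In brains of *Wapl* Δ/+ embryos, *Atoh1* was at -0.13 with the replicate block, -0.15 with the *mt-Nd3* term and -0.88 within the low set, where *Zic1* was at -0.033 and *Skor2* at -0.12. In double heterozygotes *Neurod1* was at -0.013 with the replicate block and -0.023 within the high set. Between double heterozygotes and *Wapl* Δ/+ brains, *Atoh1* was at -0.22 and *Skor2* at -0.060 within the high set and *Zic2* at 0.082 within the low set, where the interaction of *Barhl1* was 0.062. Leaving out 1 library, the ranges that crossed 0 were, in *Nipbl*+/- brains, -0.41 to 0.024 for *Atoh1*, -0.053 to 0.18 for *Barhl1*, -0.066 to 0.023 for *Neurod1* and -0.12 to 0.16 for *Skor2*. For *Wapl* Δ/+ brains they were -0.065 to 0.17 for *Atoh1* and -0.00070 to 0.050 for *Zic1*, and in double heterozygotes -0.027 to 0.063 for *Neurod1*. Between double heterozygotes and *Nipbl*+/- brains they were -0.00089 to 0.23 for *Barhl1*, -0.015 to 0.068 for *Neurod1*, -0.073 to 0.025 for *Zic2*, -0.093 to 0.015 for *Lhx1* and -0.041 to 0.19 for *Calb1*. Between double heterozygotes and *Wapl* Δ/+ brains the range was -0.0063 to 0.076 for *Barhl1*, and for the interaction the ranges were -0.16 to 0.050 for *Barhl1*, -0.026 to 0.055 for *Zic1* and -0.032 to 0.21 for *Skor2*. The relation of *Barhl1* and *Neurod1* no longer passed by Spearman's rho (0.41, adjusted permutation *P* = 0.0824), without the 2 farthest libraries (0.43), within the low set (0.32) or within the high set (0.50), and that of *Barhl1* and *Skor2* within the low set (0.68). The few reads of *Atoh1* and *Ptf1a* and the 3 *Nipbl*+/- libraries set the limits of precision.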

Other observations

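*Calb1* was also followed between brains of 1 genotype, in 3 pairs added after the levels were seen, with *P* values adjusted over the 3. Over 21 libraries its deviations from the group means fell as those of *Lhx5* rose (Pearson r = -0.75, permutation *P* = 0.00063, adjusted *P* = 0.00189, Spearman rho = -0.74, permutation *P* = 0.00107) and as those of *Lhx1* rose (r = -0.69, permutation *P* = 0.00275, adjusted *P* = 0.00275, rho = -0.71, permutation *P* = 0.00214). *Lhx5* and *Skor2* rose together (r = 0.70, permutation *P* = 0.00253, adjusted *P* = 0.00275, rho = 0.72, permutation *P* = 0.00247). Among brains of the same genotype *Calb1* and the Lhx genes thus moved in opposite directions. The pairs were picked from these same data, so their correlations are a description and no independent support for the group differences. How many other genes are tied as closely to *Calb1* was not examined. Without the 2 libraries farthest from the median of the first gene r was -0.72, -0.60 and 0.63, with adjusted permutation *P* values of 0.0133, 0.0209 and 0.0164. Within the low *mt-Nd3* libraries r was -0.73, -0.57 and 0.86 (adjusted permutation *P* = 0.0971, 0.151 and 0.0324) and within the high ones -0.84, -0.82 and 0.81 (0.0537, 0.0545 and 0.0537). *Skor2* itself was at a log2 fold change of 0.0076 in *Nipbl*+/- brains, where *Lhx5* rose by 0.45. In *Barhl1*'s order of likeness *Calb1* ranked 13306 of 17302 genes (r = -0.24) and in *Skor2*'s 15074 (r = -0.43), the lowest of the genes examined there.

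Between double heterozygotes and *Wapl* Δ/+ brains, 2 genes of the wider Purkinje list were called, *Pcp4* (log2 difference -0.25, SE 0.0455) and *Ppp1r17* (0.48, SE 0.119), both named after their values were seen. Over all genes tested, 1.02% were called in this comparison. *Ccnd1* of the Sonic hedgehog list was called lower there (-0.23, SE 0.0433). Between double heterozygotes and *Nipbl*+/- brains no gene of the wider granule, wider Purkinje or Sonic hedgehog lists was called by edgeR.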
